A study of Homo sapiens with 6 samples.

Results

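ATF4, ATF5, DDIT3, PPP1R15A, PPP1R15B, IFRD1, EIF5 and AZIN1 encode mRNAs with upstream open reading frames (uORFs), and most of them are known for translation that persists or rises when cells are stressed. They were chosen by gene symbol, as 8 of the 21165 genes with a count in DoHH-2 and 8 of the 12427 genes with a count in GM01953. eIF4B binding was mapped by iCLIP, in which RNA is cross-linked to protein by UV light, the protein is immunoprecipitated and each cDNA marks the nucleotide next to which reverse transcription stopped. DoHH-2 is a lymphoma B-cell line, labelled as diffuse large B-cell lymphoma (DLBCL), and GM01953 is a non-cancerous B-cell line. Each group is 1 cell line, with 4 replicates for DoHH-2 and 2 for GM01953, and the labels name no stress, drug or genetic change in either. The replicates of a line were pooled into 1 deposited table, so no spread between replicates and no test can be given. Every interval below is a 95% interval for counting error only.

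eIF4B is a cofactor that stimulates the RNA helicase eIF4A, which unwinds mRNA leaders (5′ untranslated regions) so that the small ribosomal subunit can scan towards a start codon. A uORF lies in the leader and takes scanning ribosomes away from the main start codon. When stress kinases phosphorylate eIF2, which carries the initiator tRNA to the ribosome, most mRNAs are translated less, while mRNAs with suitable uORFs such as ATF4 are translated more.

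The DoHH-2 table held 2033156 cDNA counts at 1179243 positions and the GM01953 table held 167197 counts at 78474 positions, a difference of 12.2-fold in depth. Positions listed for several genes were counted once in the totals. Of 8 B-cell markers, 6 had a count in DoHH-2 and 8 in GM01953, together at 889 and 4085 CPM (counts divided by the total of the table in units of 1000000). Relative to depth, CD79B (99 and 7 counts) and PAX5 (554 and 58) did not differ beyond counting error, while CD79A, CD74 and MS4A1 were lower in DoHH-2. MS4A1, which encodes CD20, had 13 and 152 counts, and CD22 and CD37 had 0 counts in DoHH-2 against 27 and 19 in GM01953. The 4 T-cell, 4 monocyte and 4 erythroid markers had 0 counts in both lines. No measurement of mRNA level is part of these tables, so more binding per mRNA and more mRNA cannot be told apart in any comparison between genes or cell lines.

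The stretches of leader that the results turn on are printed first, from GRCh38 on the transcribed strand, 5′ to 3′, with T for U. Capitals mark an upstream AUG in the first set. In the order printed, these had 66, 21, 205, 5 and 19 DoHH-2 counts within 20 nt.
ATF4 upstream AUG 1: gcccgcccacagATGtagttttctctg
ATF4 upstream AUG 2: tccacggccaccATGgcgtattagggg
ATF5 upstream AUG 1: gtagccccggccATGgctctgtagcct
DDIT3 upstream AUG 1: actgagcgtatcATGttaaagatgagc
EIF5 upstream AUG 3: ttgcagtcgtttATGtcatcccttctt
They lie at chr22:39520574-39520600 (plus strand), chr22:39520636-39520662 (plus), chr19:49929262-49929288 (plus), chr12:57520466-57520492 (minus) and chr14:103335759-103335785 (plus). The AUG of ATF4 upstream AUG 1 is followed directly by a stop codon, so this uORF is 1 codon long.

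In the second set the capital is a cross-linked base, shown for the highest position of ATF5 in DoHH-2, the highest of ATF5 in GM01953, and the highest of EIF5 and PPP1R15B in DoHH-2.
ATF5 leader: cctcggatcacagtCtcttctcactacag
ATF5 coding sequence: gatggctcgtagacTatgggaaactcccc
EIF5 coding sequence: tcaagacagttataGtcaacatggttgac
PPP1R15B leader: cttcctccgaatccCgtcgacctccagcc
They lie at chr19:49929214-49929242 (plus strand), chr19:49930915-49930943 (plus), chr14:103336058-103336086 (plus) and chr1:204411457-204411485 (minus).

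ATF5 carried most of the counts of the 8 mRNAs. It encodes a transcription factor of the stress response and had 4031 DoHH-2 counts and 130 GM01953 counts, which is 1983 CPM (1922 to 2045) and 778 CPM (650 to 923). By count it ranked 33 of 12651 coding genes in DoHH-2 and 71 of 9738 in GM01953. ATF5 held 69.3% of the 5814 counts of the 8 mRNAs in DoHH-2 and 56.0% of the 232 counts in GM01953. The main sums below are therefore also given without it.

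In DoHH-2 the other members fell into groups. EIF5, which encodes the factor that triggers GTP hydrolysis on eIF2 and limits its own synthesis at a uORF, had 481 counts or 237 CPM (216 to 259). PPP1R15B, the constitutive subunit that directs a phosphatase to eIF2, had 456 counts or 224 CPM (204 to 246), and its interval overlapped that of EIF5. ATF4, the central transcription factor of the stress response, had 362 counts or 178 CPM (160 to 197). AZIN1, an inhibitor of the protein that degrades ornithine decarboxylase, had 327 counts or 161 CPM (144 to 179), overlapping ATF4. DDIT3 encodes CHOP, a transcription factor induced late in the stress response, and PPP1R15A encodes GADD34, the inducible counterpart of PPP1R15B. DDIT3, IFRD1 and PPP1R15A had 54, 53 and 50 counts, or 26.6, 26.1 and 24.6 CPM. Their intervals overlapped one another and lay below those of the other 5 members.

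In GM01953 the order was less resolved. AZIN1 had 30 counts (179 CPM, 121 to 256), ATF4 and EIF5 had 21 counts each (126 CPM, 77.8 to 192), IFRD1 10 (59.8 CPM), PPP1R15B 9 (53.8 CPM), PPP1R15A 6 (35.9 CPM) and DDIT3 5 (29.9 CPM). Below ATF5, each neighbour in this order overlapped the next. A gene was called bound when positions with an FDR below 0.05 held more than 20 of its counts. In DoHH-2 5 of the 8 members were bound (ATF4, ATF5, PPP1R15B, EIF5 and AZIN1), against 32.9% of coding genes with a count. In GM01953 ATF5 was the 1 member bound, against 8.36%.

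**Figure D1:**
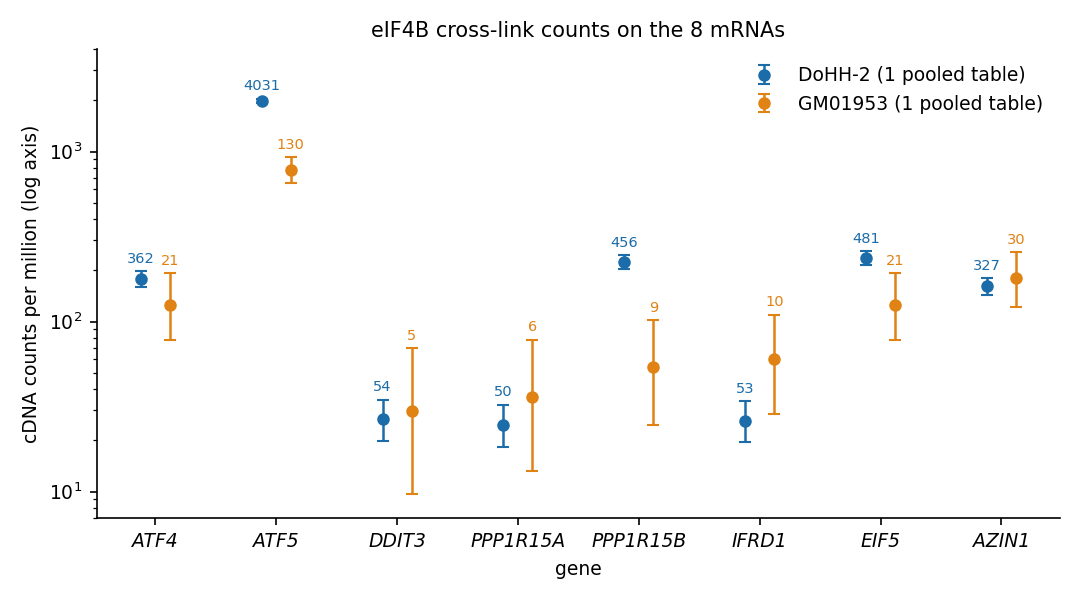
CPM of each member (log axis) in DoHH-2 (blue) and GM01953 (orange), each a pooled table, with exact Poisson 95% intervals as bars and the raw count printed above each point. ATF5 lies above all other members in both lines, and DDIT3, PPP1R15A, PPP1R15B and IFRD1 rest on 10 counts or fewer in GM01953.

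Per length the order changed, since the mRNAs differ in size. In CPM per kb of exon, ATF5 was at 943 in DoHH-2 (percentile 99.5 of 10633 coding genes with an exon count) and at 387 in GM01953 (percentile 98.6 of 8397). ATF4 followed with 113 and 88.5. PPP1R15B, EIF5 and AZIN1 were at 41.2, 37.0 and 34.5 in DoHH-2, and DDIT3, PPP1R15A and IFRD1 at 20.7, 9.84 and 5.72. The median member was at 35.8 CPM per kb in DoHH-2 and 15.1 in GM01953, beside 6.70 and 9.38 for the median coding gene.

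The 8 mRNAs together were at 2860 CPM (2787 to 2934) in DoHH-2 and at 1388 CPM (1215 to 1578) in GM01953, which gives a DoHH-2 to GM01953 ratio of 2.06 (1.81 to 2.36). Without ATF5 they were at 877 and 610 CPM, a ratio of 1.44 (1.18 to 1.77). The median coding gene with at least 100 counts over both tables had a ratio of 1.29, with quartiles of 0.822 and 2.16 over 4372 genes. The members themselves ranged from 0.436 to 4.17, on both sides of that median. With each position counted once, whatever its count, the ratio of the 8 was 1.34.

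PPP1R15B had the highest ratio, with 456 DoHH-2 counts against 9, at 4.17 (2.18 to 9.17). ATF5 had a ratio of 2.55 (2.14 to 3.06), EIF5 1.88 (1.22 to 3.07), ATF4 1.42 (0.913 to 2.32) and AZIN1 0.896 (0.616 to 1.35). Of these 5 members with at least 100 counts, 2 were at least 2-fold higher in DoHH-2, where 28.0% of coding genes were, and 0 were at least 2-fold higher in GM01953, where 8.14% were. The minimum is a sum of raw counts, which the deeper DoHH-2 table decides, and the 3 members it leaves out have ratios below 1. With a count in both tables and no minimum, 2 of 8 members were at least 2-fold higher in DoHH-2 and 1, IFRD1, in GM01953, beside 22.4% and 22.9% of coding genes. At positions with an FDR below 0.05 alone, 5 of the 5 were at least 2-fold higher in DoHH-2, beside 28.5% of coding genes, and 0 were higher in GM01953, beside 32.2%, but PPP1R15B had 0 GM01953 counts at such positions and AZIN1 3. With each position counted once 1 of the 5 was higher in DoHH-2 and 0 in GM01953, beside 30.3% and 7.41%. The intervals of ATF4 and AZIN1 include equal levels. DDIT3 and PPP1R15A, with fewer than 100 counts, had ratios of 0.888 (0.358 to 2.84) and 0.685 (0.294 to 1.96), so no difference was detectable at this depth.

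IFRD1, which encodes a transcriptional coregulator and carries 1 uORF, had 53 DoHH-2 counts and 10 GM01953 counts, with a ratio of 0.436 (0.219 to 0.961) between them. Its 10 GM01953 counts all lay outside the exons of its MANE Select transcript, the reference transcript used here, and 8 of them were at 1 intronic position (chr7:112459707). That position had 0 counts in DoHH-2. In GM01953, 5 of the 6 PPP1R15A counts and 4 of the 5 DDIT3 counts also lay outside MANE Select exons, in exons of other transcripts of these genes. In DoHH-2 the share outside was 29.6% for DDIT3, 28.3% for IFRD1 and between 3.51% and 10.6% for the other 6.

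Leaders carried far more of the counts than their length would give. In DoHH-2 2507 of the 5460 exon counts of the 8 mRNAs, or 45.9% (44.6 to 47.2), lay in the leader, which makes up 10.7% of their bases. Over all coding genes the share was 11.0% of counts on 4.81% of bases. Without ATF5 it was 35.6% (33.3 to 38.0) on 10.2% of bases. With each position counted once the share of the 8 was 27.6% (25.8 to 29.6), beside 10.6% over all coding genes. Relative to the share of bases the 8 were then at 2.59 times and all coding genes at 2.21. With all counts the 8 were at 4.30 times (3.48 without ATF5) and all coding genes at 2.30. The 4.30 lies above each member taken alone, which ranged from 1.13 in IFRD1 to 3.85 in AZIN1, with ATF5 at 3.20. In this sum ATF5 gives most of the counts, while the longer mRNAs give most of the bases.

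AZIN1 had 54.1% (48.4 to 59.7) of its DoHH-2 exon counts in the leader, ATF4 52.9% (47.5 to 58.3) and ATF5 50.2% (48.7 to 51.8). These shares, not corrected for leader length, lay at percentiles 98.9, 98.7 and 98.2 of 5211 coding genes with at least 50 exon counts. EIF5 had 29.5% (25.4 to 34.0, percentile 90.7) and PPP1R15B 19.3% (15.9 to 23.3, percentile 78.0). DDIT3 had 13 of 38 counts in the leader, PPP1R15A 15 of 47 and IFRD1 3 of 38. The 3 highest shares thus belonged to mRNAs with different leaders, of 590 nt in AZIN1, 282 nt in ATF4 and 315 nt in ATF5. Counts per base were higher in the leader than in the coding sequence for all 5 members with at least 50 exon counts, as for 73.5% of coding genes. The ratio of these 2 densities was 6.60 in AZIN1, 6.33 in ATF5 and 5.28 in ATF4, at percentiles 92.0, 91.2 and 86.8. In EIF5 and PPP1R15B it was 2.83 and 2.67, at percentiles 66.0 and 63.8, beside a median of 1.945 over the same 5211 genes.

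In GM01953 the 8 mRNAs had 102 of 209 exon counts in the leader, or 48.8% (42.1 to 55.5), and 50.6% (39.8 to 61.4) without ATF5, beside 17.3% over all coding genes. Relative to the share of bases these were 4.57, 4.95 and 3.62 times. Of the members with a leader count, ATF5 (3.04) and ATF4 (1.68) alone lay below 3.62. PPP1R15B (4.32), AZIN1 (5.08) and EIF5 (6.815) lay above it, on few counts. AZIN1 had 20 of 28, EIF5 10 of 19, ATF4 7 of 21 and PPP1R15B 3 of 9 counts there. ATF5, the 1 member with more than 30 counts, had 62 of 130 counts in the leader, or 47.7% (39.3 to 56.2), which overlaps its DoHH-2 share. Its coding sequence held 33.8% (26.3 to 42.3) in GM01953 against 21.4% (20.1 to 22.7) in DoHH-2, and its 3′ UTR 18.5% (12.7 to 26.0) against 28.4% (27.0 to 29.8). For these 2 regions the counting intervals do not overlap between the lines. Over all coding genes the 3′ UTR share was also lower in GM01953, at 29.7% against 35.5% in DoHH-2. Their coding sequence share was 53.1% in GM01953 and 53.5% in DoHH-2.

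**Figure D2:**
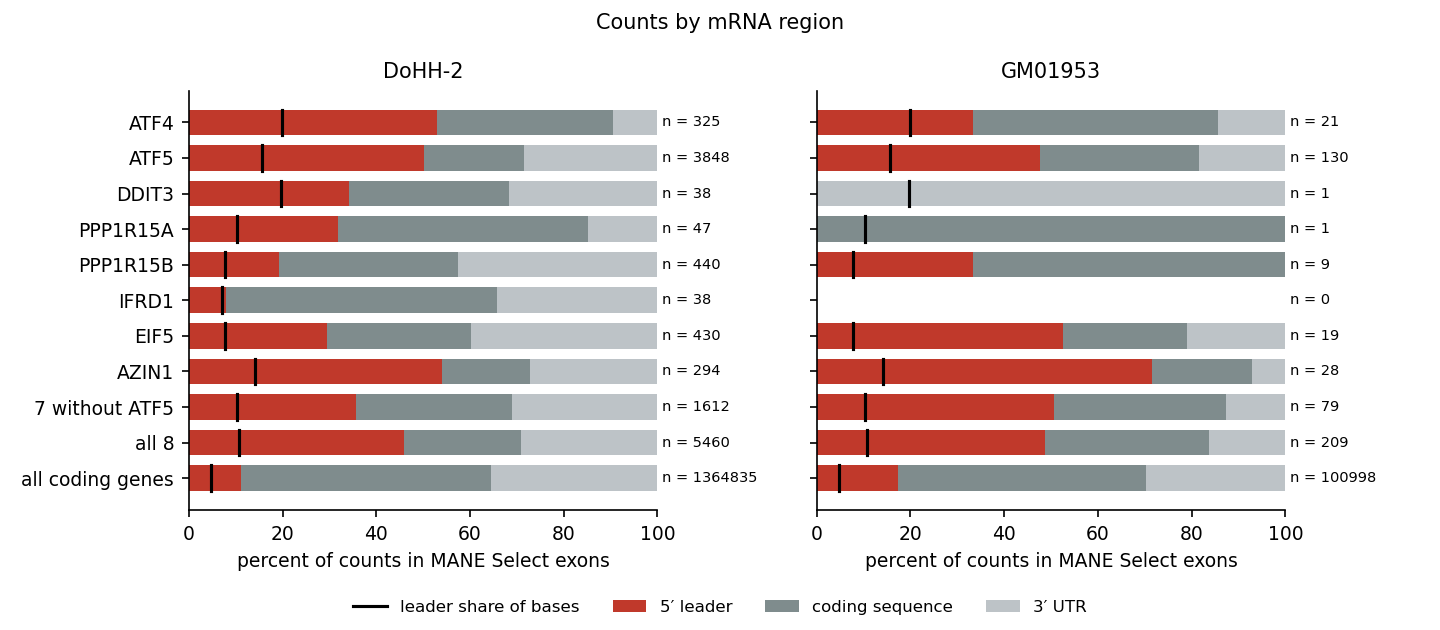
Share of exon counts in the leader (red), coding sequence (dark grey) and 3′ UTR (light grey) for each member, for the 8 together, for the 7 without ATF5 and for all coding genes, with the number of exon counts at the right of each bar. The black tick is the leader's share of the bases, and in DoHH-2 the red bar passes it in all 8 members, by the least in IFRD1 (7.89% of counts on 7.01% of bases).

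Around the main start codon ATF4 and PPP1R15B had few counts, and the other members with enough counts were near the median gene. Within 50 nt to each side lay 290 of 5460 exon counts in DoHH-2, or 5.31% (4.75 to 5.94), beside 9.59% pooled over all coding genes and 5.56% in the median of 5211 genes. Without ATF5 the share was 3.47% (2.69 to 4.48). ATF4 had 3 of 325 counts there, or 0.923% (0.314 to 2.68), at percentile 12.8 of the same 5211 genes. PPP1R15B had 6 of 440 (percentile 17.0) and PPP1R15A 0 of 47, with an interval up to 7.56%. DDIT3 had 7 of 38. EIF5 (4.65%), ATF5 (6.08%) and AZIN1 (6.12%) were at percentiles 44.4, 52.7 and 52.8. Relative to length this region was above the mean of the whole mRNA in these 3, at 2.63, 1.21 and 2.54 times, and below it in ATF4, at 0.130 times. Coding genes with an upstream AUG had a median of 3.24% at the start codon and those without 7.64%, and the 7 mRNAs without ATF5 were close to the former. In GM01953 all 15 counts at a start codon were in ATF5, and the other members had 0 of 79, with an interval up to 4.64%. Around the stop codon the 8 mRNAs had 4.19% of exon counts in DoHH-2 and 5.89% without ATF5, beside 17.4% pooled over all coding genes and 5.55% when histone genes were left out of that pool. ATF4 had 10.8% there, EIF5 8.84%, ATF5 3.48%, PPP1R15B 1.59% and AZIN1 0 of 294.

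ATF4 has 3 uORFs in its leader: the AUG and stop codon alone at −258 (counted from the A of the main AUG, with the base before it at −1), a uORF of 3 codons at −196, and a uORF of 59 codons at −97 that overlaps the main start codon. In DoHH-2 the 24 nt before the first uORF held 37 counts, its 6 nt 21, and the next 56 nt, up to the second AUG, 77. The second uORF held 2, the 87 nt after it 21 and the 97 nt of the overlapping uORF 14. As counts per kb this is 1542, 3500 and 1375 in the 5′ part, then 167, 241 and 144. The counts of ATF4 thus lay mostly before the second uORF, and 79.7% (73.0 to 85.0) of the leader counts were in its first 100 nt. The highest position of the mRNA, with 9 counts, was the third base of the first upstream AUG (chr22:39520588), followed by 7 counts on the last base of its stop codon. Single bases named here rest on positions being read as counting from 0 and would shift by 1 if they counted from 1. In GM01953 4 of 7 leader counts lay between the first and second uORFs. Of the exon counts of ATF4, 21.5% in DoHH-2 lay where the 31 nt of cDNA sequence also occur elsewhere in the genome.

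ATF5 has a uORF of 3 codons at −246 and a uORF of 59 codons at −124 that overlaps its main start codon. In DoHH-2 the 69 nt before the first uORF held 818 counts (11860 per kb), the first uORF 32 (2667 per kb), the 110 nt between the uORFs 480 (4364 per kb) and the overlapping uORF 603 (4863 per kb). The highest position, with 146 counts, was at −292 (chr19:49929228), and the bin from 21 to 40 nt after the 5′ end held 503 counts, 4.10 times the mean of the leader. Beside it, at −290 and −294, lay 52 and 45 counts. In GM01953 the same stretches held 18, 5, 11 and 28 counts, and the position at −292 held 1. There the highest position of the mRNA was in the coding sequence at +79 (chr19:49930929), with 9 counts, where DoHH-2 had 27. MIR4751 is annotated inside ATF5 (chr19:49933064-49933137), and 66 DoHH-2 counts and 5 GM01953 counts were listed for both.

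DDIT3 has overlapping uORFs of 34 and 31 codons at −143 and −134 and a uORF of 73 codons at −32 that overlaps the main start codon. Its 13 leader counts in DoHH-2 were split into 3 before the uORFs, 8 in the first pair and 2 in the last. A position with 2 counts, the most at any position of this leader, was the third base of the first upstream AUG (chr12:57520478), and 1 other leader position also had 2. PPP1R15A has uORFs of 22 and 26 codons at −206 and −107, which held 2 and 6 of its 15 leader counts, and the 34 nt before them held 7. PPP1R15B has uORFs of 8 and 51 codons at −279 and −231, with 3 and 29 of 85 leader counts. The 75 nt between its second uORF and the main start codon held 25 counts, among them its highest position, with 10 counts at −60 (chr1:204411471) and 2 counts in GM01953. In GM01953 the leaders of DDIT3 and PPP1R15A had 0 counts and that of PPP1R15B 3.

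EIF5 has 3 upstream AUGs at −230, −122 and −90, with uORFs of 97, 61 and 22 codons, of which the first and second overlap the main start codon. Its 441-nt leader held 64 DoHH-2 counts before the first AUG (303 per kb) and 63 in the uORFs (274 per kb). The highest leader position, with 7 counts, was the third base of the upstream AUG at −90 (chr14:103335773), and the highest of the mRNA, with 13 counts, lay in the coding sequence at +109 (chr14:103336072). AZIN1 has uORFs of 17, 16 and 9 codons that start with AUG at −343, −129 and −31. Any uORF that begins at another codon is counted in the main shares as leader outside uORFs. Of its 159 leader counts, 110 lay in the 247 nt before the first of them (445 per kb), and 22 in the 3 uORFs. Its highest position, with 11 counts, was at −35, 4 nt before the last upstream AUG. IFRD1 has a uORF of 52 codons at −202, which held all 3 of its leader counts.

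Summed over the 8 mRNAs, uORFs held fewer counts than their length. In DoHH-2 810 of 2507 leader counts, or 32.3% (30.5 to 34.2), lay in a uORF, while uORFs cover 46.5% of the leader bases, a ratio of 0.696. ATF5, with 1933 of the 2507 leader counts, was at 0.761 alone. Over the 3317 coding genes with a uORF and a leader count the values were 32.7% of counts on 33.6% of bases, a ratio of 0.972. ATF4 was lowest relative to length, at 21.5% (16.0 to 28.2) on 40.8% of bases, followed by AZIN1 at 13.8% (9.32 to 20.1) on 22.9% and ATF5 at 32.9% (30.8 to 35.0) on 43.2%. In EIF5 (49.6% on 52.1%) and PPP1R15B (37.6% on 45.1%) the interval includes the share of bases. In GM01953 the share of the 8 was 41.2% (32.1 to 50.9), and that of ATF5, 53.2% (41.0 to 65.1), lay above its DoHH-2 interval. With each position counted once, ATF5 was at 46.6% (40.4 to 52.8) in DoHH-2 and 48.0% (30.0 to 66.5) in GM01953. These intervals overlap, and both include its 43.2% of bases. Without ATF5 the share of the members in GM01953 was 22.5% (12.3 to 37.5) on 46.9% of bases, on 40 leader counts. AZIN1, with 22.9% of its leader bases in uORFs, gave 20 of these counts. DDIT3, PPP1R15A and IFRD1, with 62.5% to 77.4% in uORFs, gave 0. The share of bases is thus not weighted as the counts are, and a lower share inside uORFs cannot be read from this sum.

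The 5′ end moved with this share. In DoHH-2 the first 100 nt held 49.2% (47.3 to 51.2) of the leader counts of the 8 mRNAs on 29.9% of their bases, 1.65 times the share of bases, and 44.2% (40.2 to 48.3) without ATF5. All coding genes with a leader of at least 100 nt were at 1.52 times, so the members' sum was close to the background. The members differed widely. AZIN1 was at 2.49 times, ATF4 at 2.25 and ATF5 at 1.60, percentiles 98.0, 96.8 and 87.3 of 347 coding genes with at least 50 leader counts, while PPP1R15B was at 0.764 and EIF5 at 0.556, percentiles 17.9 and 9.80. With the first 100 nt left out, uORFs held 58.7% (56.0 to 61.4) of the remaining leader counts on 53.7% of bases, so for the sum the direction relative to length turned. ATF5, with 953 of the 1273 counts left, then had 63.3% (60.2 to 66.3) on 57.7% of bases. The 7 others had 45.0% (39.6 to 50.5) on 53.2%, so the turn of the sum came from ATF5. Over coding genes with a uORF the share beyond the first 100 nt was 33.4% on 36.5% of bases. ATF4, PPP1R15B, EIF5 and AZIN1 stayed below their share of bases, at 0.75, 0.78, 0.84 and 0.87 times. For PPP1R15B (46.4%, 35.1 to 58.0, on 59.8%) and EIF5 (56.8%, 47.5 to 65.6, on 67.45%) the interval now lay below that share. Those of ATF4 and AZIN1 included it. DDIT3, PPP1R15A and IFRD1 had 6, 6 and 1 leader counts left, all in uORFs. Beyond the first 100 nt the leader share of exon counts was 30.1% on 7.73% of bases, and 23.6% on 7.43% without ATF5. Over all coding genes it was 3.84% on 2.86%.

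**Figure D3:**
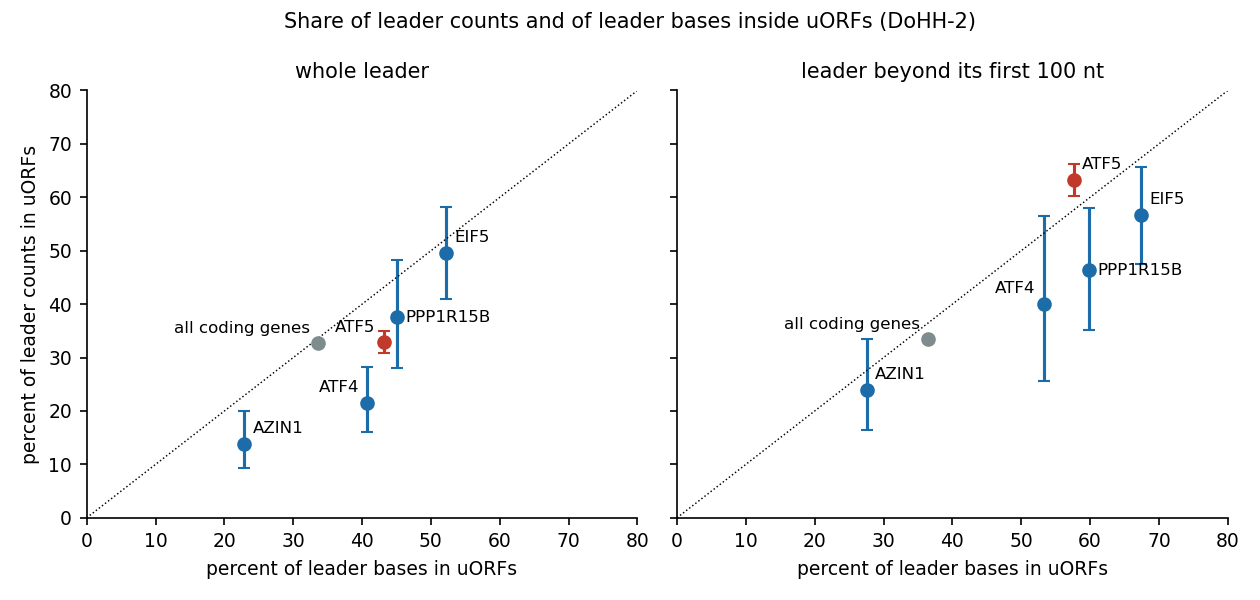
Share of leader counts in uORFs (vertical, with Wilson 95% intervals) against the share of leader bases in uORFs (horizontal) in DoHH-2, over the whole leader and beyond its first 100 nt, for the 5 members with at least 50 leader counts and for all coding genes. On the dotted line both shares are equal, and ATF5 lies below it over the whole leader and above it beyond the first 100 nt.

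At the upstream AUGs themselves, counts fell on the third base in ATF4, EIF5 and DDIT3. Over the 17 upstream AUGs of the 7 members without ATF5 the third base held 20 DoHH-2 counts, 4.67 times the mean of their leaders, of which 9 were in ATF4, 7 in EIF5 and 3 in DDIT3. The fourth base before the A was next, with 16 counts (3.74 times), and in ATF4 base 12, counted from the A, held 10 counts against 9 on the third base. The third base of the upstream AUGs of ATF5 held 0 counts. In GM01953 the third base held 0 counts in the 7 and 2 in ATF5. Over 8142 upstream AUGs of all coding genes the same base was at 1.28 times the leader mean. The base was singled out after its values were seen, and 16 of the 20 counts came from 2 codons. Those codons, in ATF4 and EIF5, and DDIT3 upstream AUG 1 are each followed by U. In DoHH-2, the base after the cross-link was U at 46.2% and G at 8.01% of the 1148 exon positions of the 7 members. U made up 28.2% of all bases of these mRNAs. The AUG of IFRD1 and upstream AUGs 1 and 2 of EIF5 are also followed by U, and their G held 0 counts. Whether the next base accounts for these counts was not tested.

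The positions of the 2 cell lines overlapped mostly in ATF5. Of the 118 GM01953 positions in the 8 mRNAs, 69 (58.5%) also had a count in DoHH-2, which is 2.90% of the 2376 DoHH-2 positions. ATF5 gave 42 of the 69, ATF4 10, EIF5 7, AZIN1 5, PPP1R15B 3 and DDIT3 2, and PPP1R15A and IFRD1 gave 0. In ATF5, however, DoHH-2 had a count at 943 of the 2007 nt of the mRNA. The overlap that such density alone would give was not computed, nor was the share over all coding genes. Positions with at least 2 counts in each line numbered 30, of which 23 were in ATF5 and 3 in ATF4. One of the ATF4 positions was in the leader at −234, with 5 and 2 counts, and the others were in the coding sequence at +479 and +500.

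Other genes of the pathway were taken as lists. Of 4 eIF2 kinases, 3 had at least 100 counts and 0 of these were 2-fold apart between the lines. Among coding genes with that minimum, 28.0% were at least 2-fold higher in DoHH-2 and 8.14% in GM01953. EIF2AK1, the kinase that responds to heme and mitochondrial stress, was the highest, with 760 and 44 counts. Of 8 subunits of eIF2 and its exchange factor eIF2B, 5 had at least 100 counts and 5 of these were at least 2-fold higher in DoHH-2, with a median ratio of 2.94, beside 28.0% of coding genes. Each of the 5 passed the minimum through its DoHH-2 counts, with 2 to 9 counts in GM01953, and the 3 subunits below it, EIF2B2, EIF2B3 and EIF2B4, had ratios of 1.40, 1.51 and 0.905. EIF2S2, the beta subunit of eIF2, had 318 and 9 counts. Of 12 ATF4 target genes 6 had at least 100 counts, of which 2 were higher in DoHH-2 and 1 in GM01953, beside 28.0% and 8.14%. The one higher in GM01953 was DDIT4, an inhibitor of mTORC1, with 502 and 86 counts, or 247 and 514 CPM. Of 8 other mRNAs known for uORFs 4 had at least 100 counts. Of these, 0 were higher in DoHH-2 and 1, UCP2, in GM01953, beside the same 28.0% and 8.14%. The highest of that list was MDM2, the ubiquitin ligase of p53, with 183 and 28 counts.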

How the data were processed

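eIF4B iCLIP was compared between DoHH-2 and GM01953. The cDNA counts per cross-link position were deposited by the authors as whole numbers without normalization. Before counting with iCount, they took out PCR duplicates (BBMap), split the experiments (Je), aligned reads to GRCh38 (HISAT2) and pooled replicates. Tool versions and the annotation release are not given in the sources used here. Beside each count the deposited tables hold an FDR (q-value) that the authors obtained with iCount.

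The members and gene lists were chosen with earlier results of these data known. Counts were summed over unique positions per symbol and divided by the table total (CPM). The position column counts from 0, as read from the uridine peak beside the cross-link on both strands, and 1 was added. Positions were placed on MANE Select transcripts of GENCODE release 44. A uORF runs from an upstream AUG to its in-frame stop codon, cut at the main start codon, with overlapping uORFs merged. Sites are positions with an FDR below 0.05, and start and stop codon regions reach 50 nt to each side. Intervals are exact Poisson for levels, exact conditional binomial for ratios and Wilson for shares, at 95% (scipy 1.17.1, Python 3.11.15). They leave out the spread between replicates, PCR copies that were left and depth-dependent detection of positions. The steps were tested on simulated data. From each pathway list the gene with the highest DoHH-2 count was named, and of each member the highest positions in each line. The other genes and positions named were chosen after their values were seen.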

Additional observations from a re-analysis of the deposited data

How the results depend on the processing

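The tables are pooled, so no replicate could be left out, and the limits are those of 232 GM01953 counts and of ATF5, which dominates every sum. No paired analysis was possible because the replicates are not separate columns. Leaving out ATF5, the lower minimums for the members, reading positions as counting from 1 and leaving out the first 100 nt were chosen after seeing the data. The level of the 8 mRNAs in DoHH-2 (2860 CPM) was 4276 at positions with an FDR below 0.05, 2015 with each position counted once, 2987 without positions listed for several genes, 3402 over a total without histone genes, 2761 without the highest position of each member and 877 without ATF5. In GM01953 (1388 CPM) it was 1184 without the highest positions and 610 without ATF5. The ratio (2.06) was 2.78 at FDR positions, 1.34 with positions counted once and 1.44 without ATF5, above 1 in each. Members at least 2-fold higher in DoHH-2 numbered 5 at FDR positions, where 28.5% of coding genes were. They numbered 1 with positions counted once, beside 30.3% of coding genes, and 1 without ATF5, beside 28.0%. Members higher in GM01953 numbered 1 (IFRD1) with a minimum of 50 counts, beside 11.0% of coding genes, and 1 with no minimum, beside 22.9%. In the other settings they numbered 0. Of coding genes, 1222 were higher in DoHH-2 and 356 in GM01953, against 2098 and 764 with a minimum of 50 counts and 2068 and 2116 with no minimum but a count in both tables. The leader share in DoHH-2 (45.9%) was 60.6% at FDR positions, 27.6% with positions counted once, 44.3% without the highest positions, 35.6% without ATF5 and 30.1% without the first 100 nt, and in GM01953 (48.8%) 37.8% without the first 100 nt. The start codon share in DoHH-2 (5.31%) was 2.42% within 25 nt and 3.47% without ATF5, and in GM01953 (7.18%) 11.7% at FDR positions, 2.39% within 25 nt and 0 without ATF5. The uORF share in DoHH-2 (32.3%) was 30.4% at FDR positions, 39.4% with positions counted once, 34.4% without the highest positions, 30.5% without ATF5, 58.7% without the first 100 nt and 95.4% with CUG and GUG starts added, when uORFs cover 89.2% of the leader bases. In GM01953 (41.2%) it was 52.5% at FDR positions, 22.5% without ATF5, 56.9% without the first 100 nt and 100% with CUG and GUG. For these shares and levels the cause was not tested. The other 43 values, the longest coding transcripts and the reading of positions from 1 among them, moved by less than the counting interval or by less than 1.5 times for counts. Leaving histone genes out of the totals moved the median ratio of coding genes from 1.29 to 1.37.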

Other observations

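The base at the cross-link differed between ATF5 and the other members. In DoHH-2 U stood at 36.7% of the 2091 exon positions of the 8 mRNAs and at 43.5% of the 1148 positions without ATF5, beside 41.2% over all coding genes and 27.7% of all bases of the 8 mRNAs. C stood at 28.4% of the 2091 positions and 23.3% of the 1148. The genes whose DoHH-2 counts were spread most like those of the 8 mRNAs over leader, start codon, coding sequence, stop codon and 3′ UTR, by the summed absolute difference of the 5 shares over 2922 coding genes with at least 100 exon counts, were METTL23 (4.90 percentage points), ARF4 (7.27), AKIRIN2 (9.12), UCP2 (12.1) and ZNF672 (12.9). UCP2 encodes a mitochondrial carrier and is also among the other mRNAs known for uORFs.

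In the leaders of coding genes with at least 50 exon counts in DoHH-2, the median leader share was 9.56% of exon counts with an upstream AUG and 7.48% without, over 1942 and 3269 genes. Among other mRNAs known for uORFs, AMD1, an enzyme of polyamine synthesis, had 64.3% of 143 exon counts in the leader, SLC35A4 55.7% of 70 and UCP2 43.8% of 128, while TIPARP had 14.5% of 55.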
